A study of Mus musculus with 8 samples.

Results

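Neurexins and neuronal adhesion molecules of the immunoglobulin superfamily were described here in the lateral ganglionic eminence (LGE), the ventral forebrain swelling from which striatal neurons and interneurons of the olfactory bulb arise. The set held 9 genes, Nrxn2, Nrxn3, Cntn1, Cntn2, Nrcam, Nfasc, Chl1, Ncam1 and Ncam2, out of 12843 genes in the deposited table. They were chosen by name with the difference between the genotypes known, so their differences are given as a description, without a test. LGE was dissected at E12.5 from 4 Gsx2 null embryo samples, of genotype Gsx2EGFP/Gsx2RA, and 4 wild-type samples. Both kinds came from crosses between Gsx2RA/+ and Gsx2EGFP/+ parents. The null is a germline one, so the tissue around the LGE carries it too. Whether embryos were pooled within a library is not stated in the labels, so every error and p-value below covers the spread among libraries alone, which may be technical.

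Neurexins are presynaptic receptors that bind neuroligins, LRRTM proteins, cerebellins and other partners across the synaptic cleft. Contactins, the NCAMs and the L1 family (Nrcam, Nfasc, Chl1 and L1cam) carry immunoglobulin and fibronectin domains. They act in axon outgrowth, fasciculation and guidance before synapses form, and the L1 family is tied to the spectrin skeleton through ankyrins. In the embryonic forebrain, growing axons and newly born neurons carry most of these molecules.

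Depth in the genes of the table ran from 16031605 to 18019285 reads per library. Levels are given in RPKM, which divides reads by gene length and library size, so they can be set side by side between genes. The deposited columns carry the numbers 5, 6, 11 and 12 for Gsx2 null and 1, 2, 7 and 8 for wild type, and these are used as library names. Gsx2 itself, a homeobox gene of LGE progenitors, stood at 49.1 to 64.2 RPKM in null libraries and 21.4 to 26.0 RPKM in wild-type libraries. What the 2 alleles leave of the Gsx2 transcript is unknown from the labels, so its RNA does not check them. In wild type, Dlx1, a subpallial marker, stood at 173 ± 11.3 RPKM and Meis2, of the striatal neuron list below, at 115 ± 5.02 RPKM (SD, n = 4). In null their means were 16.1 and 78.0 RPKM. Whether they set the LGE apart from the other eminences was not tested. Of the medial eminence markers, Lhx6 was present at 2.47 to 4.43 RPKM in null and 4.85 to 6.36 RPKM in wild type, Nkx2-1 at up to 0.497 RPKM in null and up to 1.16 RPKM in wild type, and Lhx8 under 1 RPKM in every library.

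Across the 9 genes, Nrxn3 was lower in every null library than in any wild-type library, and 6 genes were higher in every null library than in any wild-type library (Nrxn2, Cntn2, Nrcam, Nfasc, Chl1 and Ncam1). Cntn1 and Ncam2 overlapped between genotypes. Over all 11395 genes tested, 14.5% had every null library above every wild-type library and 16.4% had every null library below, 30.9% in either direction. Because this contrast chose the 9 genes, nothing is read from their count. Their median log2 difference was 0.60, beside -0.01 over all tested genes. Log2 differences here are Gsx2 null minus wild type on log2(RPKM + 1), with limma's standard error (SE), and on that scale low genes show less than their full change.

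All 9 genes passed the minimum of a mean RPKM of 1 in either genotype. Ncam2 passed through the null libraries alone, with a wild-type mean of 0.870 RPKM. In a bulk sample, fewer cells of a type and less RNA per cell cannot be told apart.

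**Figure D1:**
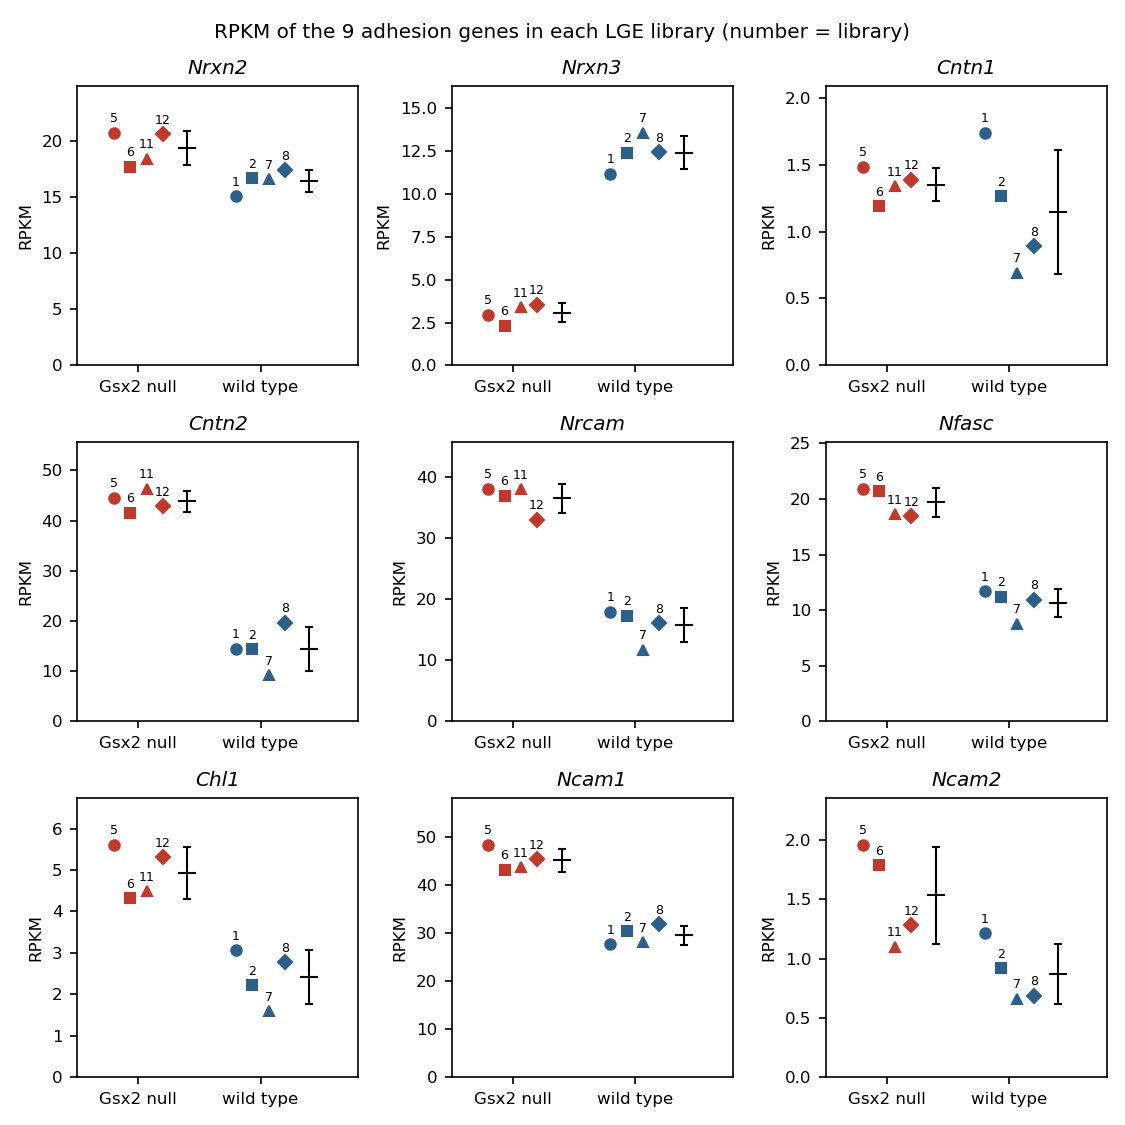
RPKM (vertical axis, starting at 0) of the 9 adhesion genes in each LGE library, Gsx2 null in red at the left of each panel and wild type in blue at the right, with the library number above each point and the mean ± SD (n = 4) as a black bar. Nrxn3 stands at 2.32 to 3.55 RPKM in null libraries, below the 11.2 to 13.6 RPKM of wild type, while Cntn2, Nrcam, Nfasc, Chl1, Ncam1 and Nrxn2 stand higher in every null library.

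The sequences before the transcription start are shown for the gene that was lower, Nrxn3, at its starts at 88953390 and 89812483 on chromosome 12 (plus strand), 2 of its 3 RefSeq starts in the table, and for Nrcam, whose mean was 2.32 times as high in null as in wild type, at its start at 44328885 on the same chromosome and strand. They are the 150 bases before each start in RefSeq, build GRCm38.p6, written 5′ to 3′. All 3 Nrxn3 starts lie inside the GENCODE span of the gene, which begins at 88722876, and no window covers that beginning. The Nrcam start is where its GENCODE span begins. Capitals mark TAAT or its reverse complement ATTA, the core that homeodomain proteins such as Gsx2 bind.
Nrxn3 chr12:88953240-88953389: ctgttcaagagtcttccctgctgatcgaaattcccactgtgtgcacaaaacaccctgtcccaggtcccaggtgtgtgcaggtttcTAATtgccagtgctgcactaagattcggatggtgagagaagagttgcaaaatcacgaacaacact
Nrxn3 chr12:89812333-89812482: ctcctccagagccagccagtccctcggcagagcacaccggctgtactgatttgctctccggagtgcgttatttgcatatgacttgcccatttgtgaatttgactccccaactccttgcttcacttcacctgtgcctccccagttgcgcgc
Nrcam chr12:44328735-44328884: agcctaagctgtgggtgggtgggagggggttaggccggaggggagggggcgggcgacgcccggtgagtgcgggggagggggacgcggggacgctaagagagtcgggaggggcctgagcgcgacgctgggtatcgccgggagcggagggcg

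RefSeq windows of 300 bases (250 before the start and 50 after) were at hand for 7 of the 9 genes, 12 windows in all. TAAT was found in 7 of these 12 windows, beside 58.0% of all 32851 windows. The longer homeodomain motif TAATTA was in 0 of the 12 (5.29% of all windows). The E-box CATCTG, a form read by neurogenin and NeuroD factors, was in 0 (17.2% of all), and the E-box CAGCTG was in 1 (16.3% of all), a window of Nfasc, where the match spans the start itself. In 3 of the 12 windows, 1 each of Nfasc, Nrxn3 and Cntn1, the bases just before the start end in AG, the letters that precede internal exons, and whether these starts are exon borders was not tested. Both strands were searched, and TAATTA overlaps TAAT. In the stretches printed here, TAAT stands once, before the Nrxn3 start at 88953390. The Nrxn3 window not printed, at 88794504, is one of those ending in AG and holds TAAT 2 times. A match is a description of letters, and a window without them says nothing of the factor.

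Nrxn3 encodes neurexin 3, and the gene lies on chromosome 12 from 88722876 to 90334935 in GRCm38, a span of 1612.1 kb. Its level was 2.95, 2.32, 3.41 and 3.55 RPKM in null libraries 5, 6, 11 and 12, against 11.2, 12.4, 13.6 and 12.4 RPKM in wild-type libraries 1, 2, 7 and 8. All null libraries were low and none came near the wild-type values. The means were 3.06 ± 0.554 RPKM in null and 12.4 ± 0.978 RPKM in wild type (SD, n = 4 each), which makes the wild-type mean 4.06 times the null mean. The log2 difference was -1.73 ± 0.10 (SE). Between 482 and 754 reads lay behind the null values, and 2319 to 2991 behind the wild-type values. The authors' deposited table gives a log2 fold change of -2.02.

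Nrxn2, which encodes neurexin 2, lies on chromosome 19 from 6418731 to 6544169. It was present at 20.7, 17.7, 18.4 and 20.6 RPKM in null libraries 5, 6, 11 and 12, and at 15.1, 16.7, 16.6 and 17.4 RPKM in wild-type libraries 1, 2, 7 and 8. The lowest null library lay just above the highest wild-type library. Means were 19.3 ± 1.54 RPKM in null and 16.4 ± 0.963 RPKM in wild type (SD, n = 4 each), a log2 difference of 0.22 ± 0.06 (SE).

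Summed over Nrxn2 and Nrxn3, RPKM was 20 to 24.1 in null libraries and 26.3 to 30.1 in wild-type libraries, so the null sums were all lower. Nrxn3 gave 13.6% ± 1.89 of this sum in null and 43.0% ± 1.43 in wild type (SD, n = 4 each). In wild type the 2 genes were thus not far apart, while in null most of the sum came from Nrxn2. Neurexin genes make long and short forms from separate promoters, and a value summed over the gene does not separate them.

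**Figure D2:**
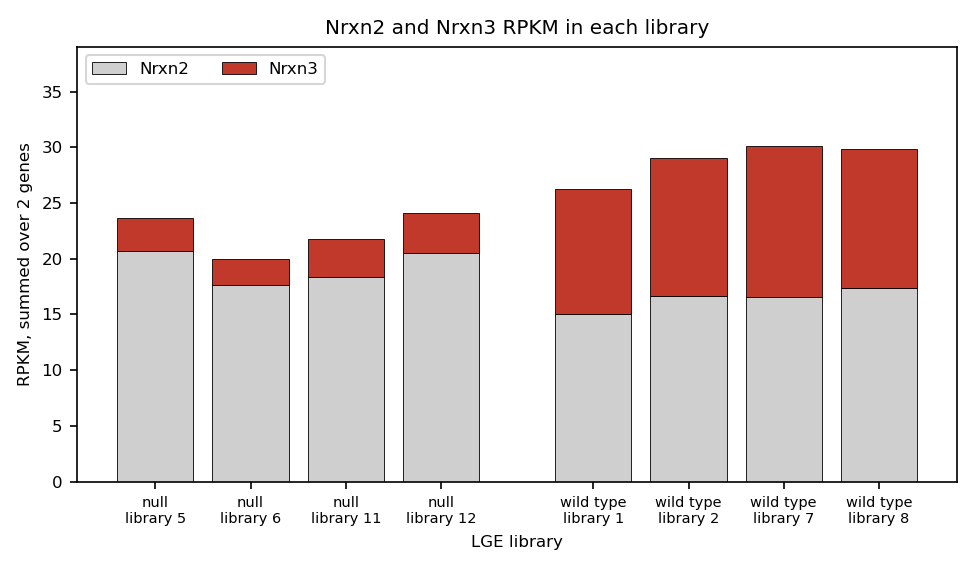
Stacked RPKM of Nrxn2 and Nrxn3 in each LGE library, the 4 Gsx2 null libraries at the left and the 4 wild-type libraries at the right, with the vertical axis starting at 0. The stacks reach 20 to 24.1 RPKM in null and 26.3 to 30.1 RPKM in wild type, and the Nrxn3 part is 11.6% to 15.6% of the stack in null and 41.7% to 45.1% in wild type.

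Cntn2 (TAG-1), a lipid-anchored contactin on the first axons that leave newly born neurons, lies on chromosome 1 from 132509427 to 132543256. It had the largest upward difference of the 9 genes. Its level was 44.6, 41.6, 46.4 and 42.9 RPKM in null libraries 5, 6, 11 and 12, against 14.5, 14.4, 9.16 and 19.7 RPKM in wild-type libraries 1, 2, 7 and 8. Null libraries lay close together, while wild type was widely spread, with library 8 highest and library 7 lowest. The means were 43.8 ± 2.08 RPKM in null and 14.4 ± 4.29 RPKM in wild type (SD, n = 4 each), a ratio of 3.04 and a log2 difference of 1.58 ± 0.17 (SE).

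Cntn1 (contactin or F3), the related lipid-anchored protein of axons and later of the contacts between axons and myelin, lies on chromosome 15 from 92051165 to 92341967. Its RNA was low in both genotypes, at 1.48, 1.19, 1.34 and 1.39 RPKM in null libraries 5, 6, 11 and 12 and at 1.74, 1.26, 0.693 and 0.889 RPKM in wild-type libraries 1, 2, 7 and 8. The highest and the lowest values were both wild type, so the null range lay inside the wild-type range. Means of 1.35 ± 0.122 RPKM in null and 1.15 ± 0.461 RPKM in wild type (SD, n = 4 each) gave a log2 difference of 0.15 ± 0.14 (SE). Its sign was not stable: the difference was -0.09 in libraries 1, 2, 5 and 6 alone and 0.40 in libraries 7, 8, 11 and 12 alone. Of the RPKM of the 2 contactins together, Cntn2 made up 97.0% ± 0.225 in null and 92.5% ± 2.64 in wild type.

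Nrcam, an L1 family receptor of axon guidance, lies on chromosome 12 from 44328885 to 44601964. It stood at 38.2, 37.0, 38.0 and 33.0 RPKM in null libraries 5, 6, 11 and 12, and at 18.0, 17.3, 11.8 and 16.1 RPKM in wild-type libraries 1, 2, 7 and 8. The groups were far apart, and library 7 was the lowest of wild type. Nrcam averaged 36.6 ± 2.40 RPKM in null and 15.8 ± 2.80 RPKM in wild type (SD, n = 4 each), a ratio of 2.32 and a log2 difference of 1.18 ± 0.11 (SE).

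Nfasc encodes neurofascin, which gathers sodium channels at the axon initial segment and at nodes in mature neurons, and lies on chromosome 1 from 132564690 to 132741797. Null libraries 5, 6, 11 and 12 had 20.9, 20.7, 18.6 and 18.5 RPKM, and wild-type libraries 1, 2, 7 and 8 had 11.7, 11.2, 8.78 and 10.9 RPKM. In null, libraries 5 and 6 were both above 11 and 12, and in wild type library 7 was again the lowest. The means of 19.7 ± 1.31 RPKM in null and 10.7 ± 1.29 RPKM in wild type (SD, n = 4 each) gave a log2 difference of 0.83 ± 0.08 (SE).

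Chl1, the close homologue of L1 and a receptor in neuronal migration and axon guidance, lies on chromosome 6 from 103510586 to 103750211. Levels were lower than for its relatives, at 5.61, 4.32, 4.49 and 5.31 RPKM in null libraries 5, 6, 11 and 12 and at 3.07, 2.23, 1.60 and 2.77 RPKM in wild-type libraries 1, 2, 7 and 8. Each null library was above each wild-type library. Chl1 averaged 4.93 ± 0.627 RPKM in null and 2.42 ± 0.647 RPKM in wild type (SD, n = 4 each), a log2 difference of 0.81 ± 0.13 (SE).

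Together the L1 family genes Nrcam, Nfasc and Chl1 summed to 56.8 to 64.7 RPKM in null libraries and 22.1 to 32.7 RPKM in wild-type libraries. Chl1 kept about the same part of this sum, 8.08% ± 1.12 in null and 8.28% ± 1.22 in wild type (SD, n = 4 each). Nrcam made up 59.7% ± 1.75 in null and 54.6% ± 1.38 in wild type. L1cam was not analysed here.

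Ncam1 encodes the neural cell adhesion molecule, the main carrier of polysialic acid in the developing brain, and lies on chromosome 9 from 49502136 to 49798925. It was the most abundant of the 9 in both genotypes, at 48.4, 43.1, 43.6 and 45.4 RPKM in null libraries 5, 6, 11 and 12 and at 27.7, 30.4, 28.1 and 31.9 RPKM in wild-type libraries 1, 2, 7 and 8. Spread within each genotype was small beside the distance between them. Its means were 45.1 ± 2.36 RPKM in null and 29.5 ± 1.95 RPKM in wild type (SD, n = 4 each), a ratio of 1.53 and a log2 difference of 0.60 ± 0.06 (SE).

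Ncam2, the paralogue best known from olfactory sensory axons, lies on chromosome 16 from 81200697 to 81626828. It stood at 1.96, 1.79, 1.10 and 1.28 RPKM in null libraries 5, 6, 11 and 12, and at 1.21, 0.918, 0.661 and 0.688 RPKM in wild-type libraries 1, 2, 7 and 8. Null library 11 was below wild-type library 1, so the genotypes overlapped by that library. Its means were 1.53 ± 0.407 RPKM in null and 0.870 ± 0.256 RPKM in wild type (SD, n = 4 each), a log2 difference of 0.43 ± 0.13 (SE). Between 91 and 266 reads lay behind each Ncam2 value. With reads in place of RPKM + 1 (limma voom) the difference was 0.82.

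**Figure D3:**
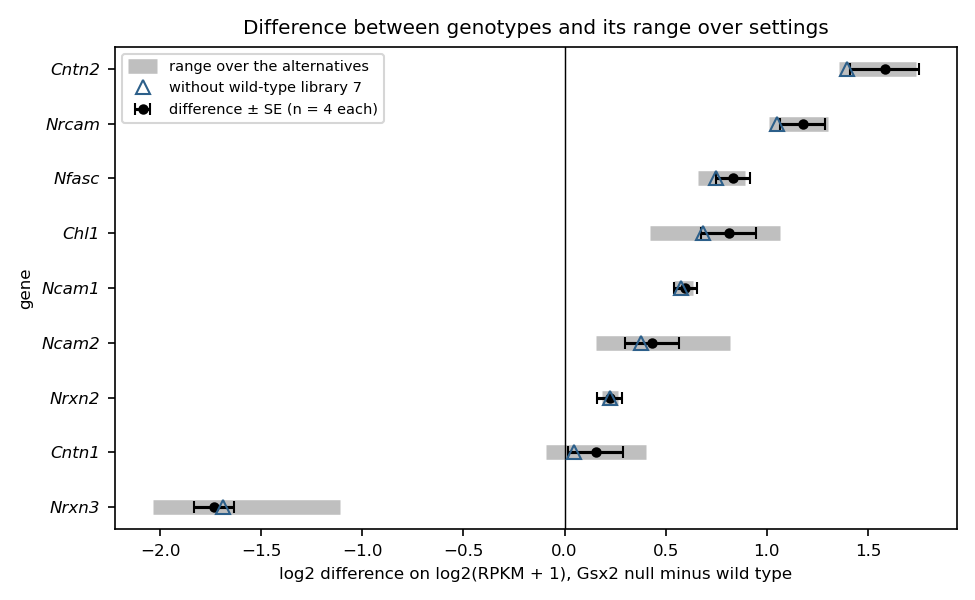
Log2 difference on log2(RPKM + 1), Gsx2 null minus wild type (horizontal axis), for each of the 9 genes (vertical axis), as black points with SE (n = 4 each), grey bars for the range over all alternatives, library subsets included, and blue triangles for the value without wild-type library 7. Nrxn3 lies at -1.73 and Cntn2 at 1.58, and the grey bar of Cntn1 crosses 0 through its value of -0.09 in libraries 1, 2, 5 and 6 alone.

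The order of levels differed between the genotypes. In null, Ncam1 and Cntn2 were highest and overlapped, then came Nrcam, then Nfasc and Nrxn2, which overlapped, then Chl1, Nrxn3, and last Ncam2 and Cntn1, which overlapped. In wild type, Ncam1 stood above all others without overlap. Nrxn2, Nrcam, Cntn2, Nrxn3 and Nfasc followed, each overlapping with the next, so the order of neighbours there is not fixed by these libraries. Some genes further apart in this order did not overlap. Nrxn2 (15.1 to 17.4 RPKM) lay above Nrxn3 (11.2 to 13.6 RPKM) and Nfasc (8.78 to 11.7 RPKM). Nrcam, at 11.75 RPKM or more, lay just above Nfasc. Chl1, Cntn1 and Ncam2 were lowest. Nrxn3 thus stood below Chl1 in null and above it in wild type.

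Within wild type, library 7 held the lowest value for 6 of the 9 genes (Nrcam, Cntn1, Cntn2, Ncam2, Chl1 and Nfasc) and the highest value for Nrxn3. Markers of pallial glutamatergic neurons, the excitatory neurons of the cortex side (10 of 10 listed, led by Tbr1 and Neurod6), summed to 448 to 493 RPKM in null libraries and 44.7 to 171 RPKM in wild-type libraries. The lowest wild-type sum, 44.7 RPKM, was that of library 7, and the other wild-type libraries had 144 to 171. Subpallial GABAergic markers (8 of 9 listed, led by Dlx1 and Dlx2) summed to 47.0 to 80.1 RPKM in null and 497 to 598 RPKM in wild type, with the highest sum, 598, in library 7. Within each genotype the higher-numbered libraries had the higher subpallial sums, 76.2 and 80.1 RPKM in null libraries 11 and 12 with 55.3 and 47.0 in 5 and 6, and 598 and 545 RPKM in wild-type libraries 7 and 8 with 497 and 502 in 1 and 2. The part of these marker differences in the 9 genes was not tested.

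Without library 7, the log2 difference was 1.40 for Cntn2, 1.05 for Nrcam, 0.75 for Nfasc, 0.69 for Chl1 and -1.69 for Nrxn3. For Cntn1 it was 0.05, and for Ncam2 it was 0.38. Neuron markers of any type (9 of 10 listed, led by Tubb3 and Stmn2) summed to 1169 to 1378 RPKM in null. In wild type they summed to 976 to 1147 RPKM, a log2 ratio of mean sums of 0.27. These sums are weighted to Tubb3, with means of 588 RPKM in null and 553 RPKM in wild type. Tubb3, Stmn2 and Elavl3 overlapped between genotypes. Map2, Elavl4, Snap25, Gap43, Mapt and Rbfox3 were higher in every null library, Elavl4 with means of 59.8 RPKM in null and 35.8 RPKM in wild type. Radial glia markers (8 of 8 listed, led by Vim and Fabp7) summed to 1407 to 1766 RPKM in null. In wild type this sum was 1352 to 1480 RPKM, and it is weighted to Vim and Fabp7, which overlapped between genotypes. The other members split in direction. Sox2 (93.3 to 115 RPKM in null, 174 to 179 in wild type) and Hes5 (38.1 to 45.5 and 55.8 to 65.7) were lower in every null library. Slc1a3 (41.4 to 46.4 RPKM in null, 31.2 to 36.2 in wild type) and Pax6 (34.5 to 45.6 and 15.5 to 26.1) were higher in every null library. Nes and Hes1 were so by a hair. The lowest null and highest wild-type values were 162.3 and 162.2 RPKM for Nes, and 13.33 and 13.31 RPKM for Hes1. Cajal-Retzius markers (5 of 5 listed, led by Reln and Calb2) summed to 22.2 to 62.2 RPKM in null. In wild type they summed to 5.89 to 29.8 RPKM. Reln, Trp73 and Calb2 overlapped between genotypes. Lhx1 (1.66 to 2.71 RPKM in null, 0.094 to 0.563 in wild type) and Lhx5 (4.23 to 7.90 and 0.235 to 1.58) were higher in every null library. The part of the cells of these lists in the 9 genes was not tested either.

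Further lists covered other cells that the dissection could hold. Striatal neuron markers (8 of 10 listed, led by Meis2 and Bcl11b) summed to 160 to 187 RPKM in null and 274 to 331 RPKM in wild type. This sum is weighted to Meis2, with means of 78.0 RPKM in null and 115 RPKM in wild type. Bcl11b (38.5 to 43.3 RPKM in null, 38.8 to 57.6 in wild type) and Foxp1 overlapped between genotypes. Meis2, Isl1, Ebf1, Six3, Zfp503 and Rarb were lower in every null library. Medial eminence markers (3 of 3 listed, led by Lhx6 and Nkx2-1) summed to 2.87 to 5.16 RPKM in null and 6.56 to 7.63 RPKM in wild type. For the oligodendrocyte and Schwann cell list, 2 of 5 genes were listed, Olig1 and Olig2, and summed to 9.75 to 14 RPKM in null and 22.4 to 26.9 RPKM in wild type, while Sox10 was not analysed here, nor were Ikzf1, Drd1 and Dcx of the lists above. The part of these cells in the 9 genes was not tested. Endothelial markers (5 of 5, led by Cldn5 and Pecam1) stood at 19.0 to 25.8 RPKM in null and 25.8 to 29.6 RPKM in wild type. Microglial markers (5 of 5, led by P2ry12 and Cx3cr1) stood at 7.51 to 10.1 RPKM in null and 7.06 to 9.21 RPKM in wild type. Red blood cell genes (6 of 6, led by Hbb-y and Hba-x) stood at 1233 to 1770 RPKM in null and 1276 to 2260 RPKM in wild type. The 2260 RPKM was that of library 7, and the other wild-type libraries had 1276 to 1496 RPKM. Library 7 also had the lowest wild-type sums of the neuron, radial glia and Cajal-Retzius lists. The part of this in the 9 genes was not tested.

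**Figure D4:**
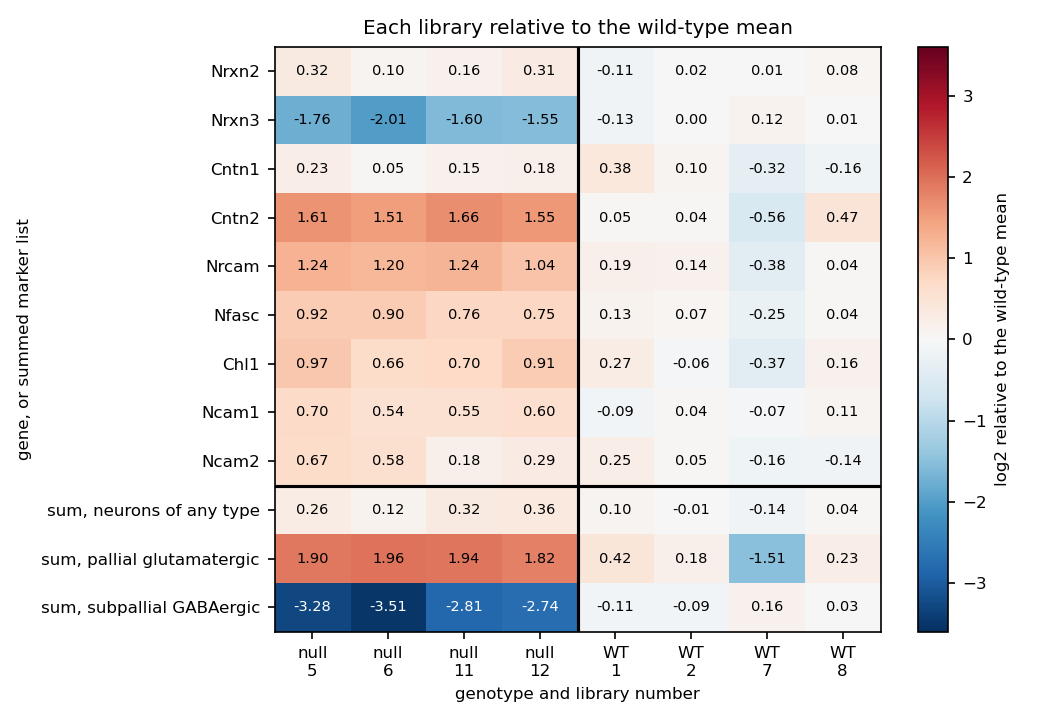
Each library (columns, 4 Gsx2 null at the left and 4 wild type at the right) relative to the wild-type mean for the 9 genes on log2(RPKM + 1), and below them for the summed RPKM of 3 marker lists on log2, with red for higher and blue for lower. Library 7 of wild type stands at -1.51 for the pallial sum and at -0.56 for Cntn2, and at 0.12 for Nrxn3.

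The genes whose pattern over the 8 libraries lay nearest to each gene were found among 7968 named genes averaging 5 RPKM or more over all libraries, by the root mean square difference of log2(RPKM + 1) after centring. This was done for the 5 genes whose log2 values spanned at least 1. The noncoding RNA Six3os1 was among the 2 nearest to Nrxn3, at 0.11 log2 units, where the median over all compared genes was 0.87. Six3os1 stood at 2.04 to 2.73 RPKM in null and 7.61 to 9.80 RPKM in wild type.

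Nearest to Cntn2 were Plxna4, a semaphorin receptor (0.08), and Rnd2, a small GTPase of neuronal migration (0.15). For Nrcam they were Sorbs2 (0.08) and Dcc, the netrin receptor (0.10). Dcc stood at 36.5 to 39.3 RPKM in null and 10.6 to 17.8 RPKM in wild type. The nearest genes to Chl1 were Cd200 (0.10) and Mapt, which encodes tau (0.11), and those to Nfasc were Ttc28 (0.07) and Abcd2 (0.08). The profiles hold the genotype difference itself, so genes near each other in this measure have a difference of like size and sign.

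Further genes of the same pathways were read from a list of 80, of which 67 were in the table and 61 were tested. Of these 61, 39 rose, 3 fell and 19 did not pass (limma, Benjamini-Hochberg adjusted over all genes tested). That is 63.9% higher and 4.92% lower, beside 13.8% higher and 14.6% lower over all 11395 genes, where 28.5% passed in either direction. The median log2 difference of the 61 genes was 0.34. Cbln4, Cntn4, Cntn6 and Opcml, all among the 39, passed the minimum of a mean RPKM of 1 through the null libraries alone. Their wild-type means were 0.27, 0.417, 0.506 and 0.948 RPKM, so their place among the genes tested rests on the genotype where they are higher. With no minimum, 39 of the listed genes were higher and 4 lower. The list was chosen with earlier results of these data known, so its count is not independent of them.

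Receptors and ligands around the neurexins were mostly higher in null. The values in parentheses from here on are log2 differences ± SE, and means are ± SD (n = 4 each). The neuroligin genes Nlgn1 and Nlgn2, which encode postsynaptic neurexin ligands, both rose. Nlgn1 reached 3.69 ± 0.450 RPKM in null, against 1.86 ± 0.337 RPKM in wild type (0.72 ± 0.10, limma adjusted p = 0.000755), and Nlgn2 reached 47.4 ± 2.59 RPKM in null, against 41.1 ± 1.57 RPKM in wild type (0.20 ± 0.05, limma adjusted p = 0.0168). Of 16 other neurexin partners tested, 12 rose and 0 fell. Class counts here and below stand beside 13.8% higher and 14.6% lower over all 11395 genes tested. Cbln4, among the 12, passed the minimum mean RPKM of 1 through the null libraries alone. Cbln2, a secreted cerebellin that bridges neurexins to glutamate receptors of the delta type, stood at 25.7 ± 1.68 RPKM in null and 8.32 ± 3.35 RPKM in wild type (1.60 ± 0.25, limma adjusted p = 0.00111). Adgrl3, a latrophilin, stood at 10.2 ± 0.798 RPKM in null and 4.28 ± 0.669 RPKM in wild type (1.08 ± 0.10, limma adjusted p = 4.59e-05). Lrrtm1 (0.88 ± 0.11) and the calsyntenin gene Clstn1 (0.29 ± 0.05) rose too, and Nxph4, a neurexophilin, had the largest difference of the list (1.99 ± 0.37, limma adjusted p = 0.00323).

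Both ankyrin genes tested rose. Ank3, whose ankyrin G anchors Nfasc and Nrcam at the axon initial segment, averaged 24.2 RPKM in null and 12.1 RPKM in wild type, higher in 4 of 4 null libraries (0.94 ± 0.07, limma adjusted p = 1.32e-05). Ank2 had a smaller difference (0.32 ± 0.05, limma adjusted p = 0.00157). Among contactins and their partners, 4 of 7 rose and 0 fell. Of these 4, Cntn4 and Cntn6 passed the minimum mean RPKM of 1 through the null libraries alone. Cntnap2, a partner of Cntn2 in axons, stood at 36.4 ± 3.38 RPKM in null and 19.2 ± 4.28 RPKM in wild type (0.90 ± 0.13, limma adjusted p = 0.000764), and Cntn4 (0.71 ± 0.16), Cntn6 (0.47 ± 0.10) and Cntnap4 (0.40 ± 0.09) rose too, at low levels.

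Of the enzymes that put polysialic acid on Ncam1, St8sia4 rose (0.36 ± 0.07, limma adjusted p = 0.00463). St8sia2 stood at 35.9 ± 2.65 RPKM in null and 31.6 ± 2.48 RPKM in wild type (limma adjusted p = 0.0799). In the IgLON family of lipid-anchored adhesion proteins, Negr1 (0.95 ± 0.15), Opcml (0.64 ± 0.10) and Ntm (0.59 ± 0.07) rose. Opcml passed the minimum mean RPKM of 1 through the null libraries alone. Lsamp, a limbic system protein, fell to 2.14 to 2.24 RPKM in null libraries, against 2.93 to 3.56 RPKM in wild-type libraries (-0.41 ± 0.06, limma adjusted p = 0.00117).

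Of 20 other immunoglobulin adhesion genes, 12 rose and 1 fell. Igsf21, a neurexin 2 ligand of inhibitory synapses, stood at 9.54 ± 0.436 RPKM in null and 3.28 ± 1.22 RPKM in wild type (1.35 ± 0.18, limma adjusted p = 0.000483). Igsf9b (0.81 ± 0.10) and Dscaml1 (0.68 ± 0.08) rose, while Kirrel, a nephrin relative, fell (-0.50 ± 0.06, limma adjusted p = 0.000220). In the class of LAR-type phosphatases and their Slitrk ligands, 2 of 6 rose and 1 fell. Ptprd was at 17.6 ± 1.76 RPKM in null and 8.44 ± 1.94 RPKM in wild type (1.00 ± 0.14, limma adjusted p = 0.000744), and Ptprf was higher as well (0.37 ± 0.05). Slitrk3, a postsynaptic organiser of inhibitory synapses, fell to 1.73 ± 0.154 RPKM in null, against 4.13 ± 0.260 RPKM in wild type (-0.91 ± 0.07, limma adjusted p = 1.59e-05).

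The calls of Nxph1, Dscam and Cadm1 did not hold throughout. Fits on 2 libraries per genotype called fewer of the 61 genes, with 29 higher and 4 lower in libraries 1, 2, 5 and 6 and 36 higher and 4 lower in libraries 7, 8, 11 and 12. Leaving those subsets aside, the limma adjusted p of Nxph1 (log2 difference 0.29) was 0.0516 to 0.0918 in 5 alternatives, all with 1 library left out. That of Dscam (0.33) was 0.0522 to 0.129 in 8 alternatives, and that of Cadm1 (0.19) was 0.0518 to 0.0739 in 4 with 1 library left out.

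**Figure D5:**
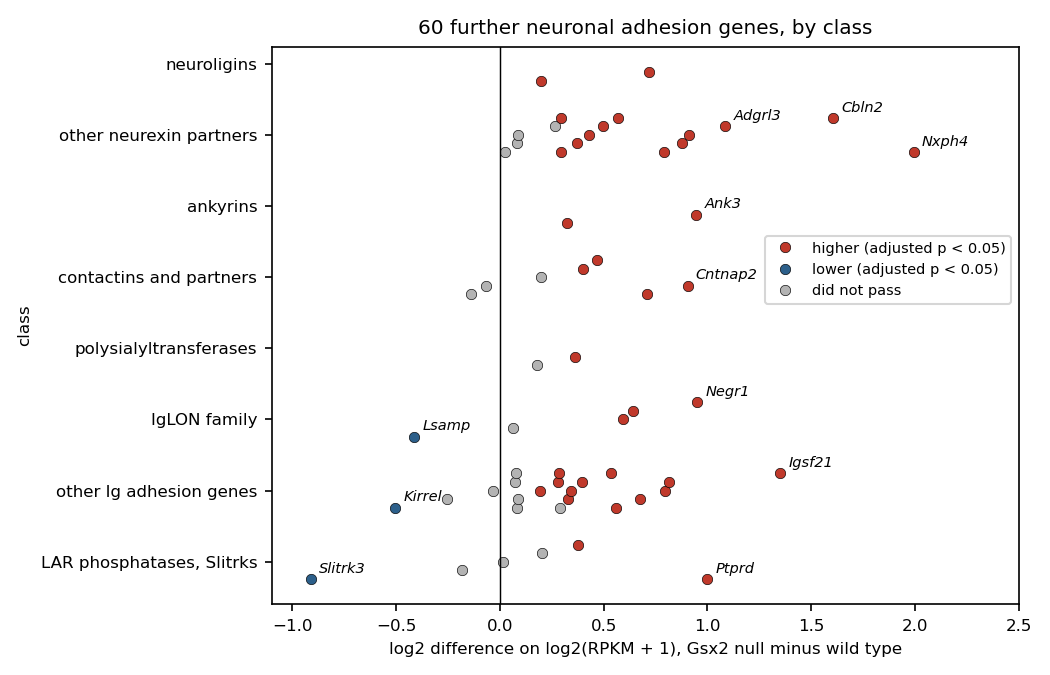
Log2 difference on log2(RPKM + 1), Gsx2 null minus wild type (horizontal axis), of 60 of the 61 further adhesion genes by class (vertical axis, points spread within a class for legibility), red for the 38 that rose, blue for the 3 that fell and grey for the 19 that did not pass. The 3 blue points are Slitrk3, Kirrel and Lsamp, at -0.91, -0.50 and -0.41.

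Most of the 9 genes have long bodies, a property the choice did not use, and Cntn2 and Nfasc lie near each other on the minus strand of chromosome 1. In GENCODE their spans ran from 33.8 kb (Cntn2) to 1612.1 kb (Nrxn3), beside a median of 25.0 kb over 11154 tested genes, and 7 of the 9 lay above the 90th percentile of 135.3 kb. The 1116 tested genes above that percentile had a median log2 difference of 0.11, against -0.01 over all. Exons of Nrxn2, Nrxn3 and Ncam1 overlap annotated genes on the opposite strand that are not in the table, and since the strand setting of the counting is not given, reads from both strands cannot be told apart there.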

How the data were processed

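RNA was measured in 8 LGE libraries of mouse embryos, 4 Gsx2 null and 4 wild type. Polyadenylated RNA was made into dUTP stranded libraries with 9 PCR cycles and sequenced as single-end 51 bp reads, per the labels' protocols. STAR, featureCounts, edgeR and the build mm10 are named in the submitters' processing notes. Their versions, the annotation and the strand setting of the counting are not stated there.

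The authors deposited RPKM per library, per the file headers, together with a log2 fold change, an average log2 CPM, a p-value and an FDR per gene. The deposited p-values were not used. Column names gave the genotype and a library number that is in no label, so columns were assigned to genotypes (Germline read as Gsx2 null, from the series title), and 0 columns of per-sample values were left out. A positive deposited log2 fold change means higher in null, checked on 1782 genes with an absolute value above 0.5 (100% with the sign of the RPKM difference).

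The 11395 of 12843 genes that averaged 1 RPKM or more in at least one genotype were fitted as log2(RPKM + 1) with limma 3.58.1 in R 4.3.3, with an intensity trend, as a two-sided test. P-values were adjusted by Benjamini-Hochberg over these genes, with a threshold of 0.05. The script was tested on simulated reads drawn with the same small spread between libraries for every gene. That test does not cover genes as widely spread as Cntn1 and Cntn2 were in wild type. RPKM steps gave whole reads for 100% of genes (tolerance 1e-06 of a read, widened in proportion above 100 reads), and these reads set the depth and entered limma voom as an alternative. Other alternatives were pseudocounts of 0.1 and 5, other filters, scalings and fits, single libraries left out, library subsets and a block on them. An RPKM fixes no number of molecules, and reads without molecular identifiers are not independent molecules.

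The 9 genes, the lists and the rules were chosen with earlier results of these data known. The 9 genes were chosen with this contrast known, so no test is given for them. Of the adhesion lists, up to 4 genes per class with the smallest adjusted p past the threshold are named, or the 2 with the highest RPKM where none passed. Of each marker list the 2 highest genes are named, with genes not in the table, and for genes spanning at least 1 log2 unit the 2 nearest in pattern. Nxph1, Nxph4, Dscam, Cadm1, St8sia2 and Cbln4 fall outside this rule and were chosen after their values were seen. The same holds for further members of the neuron, radial glia, Cajal-Retzius and striatal neuron lists. Some items that the rule would name are not reported here. Gene coordinates are from GENCODE M21 (GRCm38) and promoter sequences from RefSeq (GRCm38.p6), the same assembly as mm10.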

Additional observations from a re-analysis of the deposited data

How the results depend on the processing

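No paired analysis was possible because the columns carry no replicate number of the labels, and nothing pairs single libraries. A fit with the lower-numbered and higher-numbered libraries as blocks, added after seeing the data, gave 1715 genes higher and 1863 lower, 40 and 3 of the other adhesion genes, and the same log2 differences for the 9 genes. For these 9, 168 values under 19 alternatives were computed, of which 1 had the opposite sign (Cntn1, -0.09 in libraries 1, 2, 5 and 6 alone) and 11 moved by more than the spread between libraries. At pseudocounts of 0.1 and 5 the log2 difference was -2.00 and -1.11 for Nrxn3, and 0.75 and 0.15 for Ncam2. A pseudocount of 5 gave 0.42 for Chl1 and 0.66 for Nfasc. With voom on the recovered reads it was -2.04 for Nrxn3, 0.82 for Ncam2 and 1.07 for Chl1, and Cntn1 stood at 0.40 in libraries 7, 8, 11 and 12 alone. A larger pseudocount shrinks low genes by construction.

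Of all genes, 1574 rose and 1668 fell. In libraries 1, 2, 5 and 6 alone 753 rose, and in libraries 7, 8, 11 and 12 alone 1052 fell, so 38.6% and 64.5% of calls were upward, against 48.6% in all 8; the cause was not tested. Leaving out 1 library gave 1235 to 1627 higher and 1236 to 1587 lower. Of the other adhesion genes, 36 to 40 were higher and 3 to 4 lower with 1 library left out, and 29 higher and 4 lower in libraries 1, 2, 5 and 6 alone. With a minimum mean RPKM of 5, 1 was lower, since Lsamp and Slitrk3 are then not tested. Neither the labels nor the columns name a batch.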
